A study of Mus musculus with 23 samples.

Results

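The 231 precursor rows are the rows of the deposited miRNA count matrix whose name carries the class "precursor", chosen by that name and by no measured value. They make up 231 of 1356 rows, beside 903 mature, 143 stemloop and 79 unannotated rows, and each is named for a miRNA locus. Small RNA was sequenced from 23 mouse retinas at postnatal day 90, 1 library per retina. WT retinas came from untreated C57B mice. All other retinas came from P23H+/- mice, heterozygous for a rhodopsin knock-in allele that models retinitis pigmentosa. These mice were un-injected, saline injected, or given DNA nanoparticles that carry the genomic form of human rhodopsin (human gRHO) or of mouse rhodopsin (mouse gRho). Eyes that the titles appear to place in the same mouse were summed. This left 15 mice, of which 2 were WT, 3 uninjected, 1 given saline, 2 human gRHO and 7 mouse gRho. The labels give no route or dose. That reading is an inference, and if it is wrong, or if samples of a group share more than their treatment, p-values measure a spread that may be technical.

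A miRNA gene is copied into a long primary transcript, from which Drosha cuts a hairpin, the precursor. Dicer then removes the loop and leaves a short duplex, of which usually a single arm is kept in the silencing complex and pairs with targets through its seed. Reads that reach beyond a mature arm are rare in small RNA libraries, since the hairpin is short-lived and longer than the fragments that size selection favours. How the authors told precursor reads from mature and stemloop reads is not stated by the labels or the file headers. The class is described as deposited.

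Mature arms of the 3 loci that led the class, mir-24-1, mir-21a and mir-125a, are shown with those of copies or relatives that share a seed. Arms of mir-204 and mir-211, which share another seed, are added. Levels of copies and seed families are compared later. The seed (bases 2 to 8) is in capitals. Sequences are those of RefSeq for GRCm38.p6, written 5′ to 3′. The copies mir-24-1 and mir-24-2 make the same 3p arm and differ in the 5p arm.

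miR-24-3p: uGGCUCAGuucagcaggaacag
miR-24-1-5p: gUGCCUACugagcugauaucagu
miR-24-2-5p: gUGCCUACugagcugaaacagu
miR-21a-5p: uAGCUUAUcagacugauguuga
miR-125a-5p: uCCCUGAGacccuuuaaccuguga
miR-125b-5p: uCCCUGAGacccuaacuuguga
miR-204-5p: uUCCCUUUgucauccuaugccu
miR-211-5p: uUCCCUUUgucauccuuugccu

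The seed UCCCUUU is shared by miR-204-5p and miR-211-5p, and CCCUGAG by miR-125a-5p and miR-125b-5p. Hairpins of further loci that the results turn on follow, with both arms in capitals and the flanks and loop in lower case. mir-429 and mir-200a are neighbours on chromosome 4, and mir-96, mir-182 and mir-183 neighbours on chromosome 6.

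mir-125a: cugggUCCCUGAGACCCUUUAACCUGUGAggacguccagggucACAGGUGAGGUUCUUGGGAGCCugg
mir-33: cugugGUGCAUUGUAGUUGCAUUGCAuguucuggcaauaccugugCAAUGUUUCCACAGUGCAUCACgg
mir-204: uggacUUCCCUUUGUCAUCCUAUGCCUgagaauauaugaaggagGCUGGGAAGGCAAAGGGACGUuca
mir-211: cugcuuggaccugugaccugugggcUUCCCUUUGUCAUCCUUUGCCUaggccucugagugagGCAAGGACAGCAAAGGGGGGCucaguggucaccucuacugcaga
mir-429: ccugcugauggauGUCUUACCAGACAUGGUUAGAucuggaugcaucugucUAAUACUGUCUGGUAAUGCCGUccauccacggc
mir-200a: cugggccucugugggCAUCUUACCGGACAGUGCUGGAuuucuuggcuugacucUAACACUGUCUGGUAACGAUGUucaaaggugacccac
mir-96: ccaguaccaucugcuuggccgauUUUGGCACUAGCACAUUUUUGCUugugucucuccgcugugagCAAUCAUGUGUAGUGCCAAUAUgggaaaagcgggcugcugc
mir-182: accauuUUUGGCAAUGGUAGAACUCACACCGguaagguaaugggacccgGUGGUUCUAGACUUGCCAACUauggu
mir-183: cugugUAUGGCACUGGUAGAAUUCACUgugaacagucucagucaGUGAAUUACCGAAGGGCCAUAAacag

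In GRCm38 the hairpin of mir-24-1 lies at chr13:63301208-63301275 (+), within a UTR exon of 2010111I01Rik and opposite to an intron of Fancc. The hairpin of mir-21a lies at chr11:86584067-86584158 (-), in a UTR exon of Vmp1. mir-125a lies at chr17:17830812-17830879 (+) in an exon of a Spaca6 transcript. mir-33 lies in an intron of Srebf2 at chr15:82198122-82198190 (+), mir-204 in an intron of Trpm3 at chr19:22750605-22750672 (+), and mir-211 in an intron of Trpm1 at chr7:64205806-64205911 (+). mir-429, at chr4:156053905-156053987 (-), overlaps an exon of the long noncoding Gm13648 and an intron of Ttll10. mir-96, at chr6:30169446-30169551 (-), overlaps no annotated host gene.

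The class was small beside the mature miRNA reads. The 23 libraries held 20784 precursor reads in all, or 87.7 per 1000000 mature miRNA reads (RPM), with 505 to 1345 per library against 5968388 to 16048954 mature reads. Between 57 and 114 of the 231 rows had a read in a given library (median 90). Libraries in which rRNA took over 2% of aligned reads numbered 6, of which 3 were uninjected and 3 mouse gRho. The 3 uninjected ones are all those of uninjected mouse 2 and uninjected mouse 3. Any comparison with uninjected mice without the rRNA-rich libraries therefore rests on uninjected mouse 1 alone. The library of uninjected mouse 2 and the right eye of mouse gRho mouse 1 were poor in retinal miRNAs. In the latter the neuronal rows mir-124-1, mir-124-2 and mir-124-3 had 0 reads of 1240 precursor reads, which allows up to 0.305 RPM for each. Values without some of these libraries are given for a part of the results only, such as mir-96, mir-324 and the whole class. Other values include them. Of loci known from retina, mir-204 and mir-211 had precursor reads in 23 of 23 libraries, mir-124-2 in 22 and mir-96 in 21. In whole retina, fewer cells of a type and less RNA per cell cannot be told apart.

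Precursor reads were concentrated in a few loci. The 7 most abundant rows held 50% of all precursor reads and 53 rows held 90%, while 89 rows had 5 reads or fewer over all 23 libraries and 28 had a single read. The median row had 11 reads. Reads were found in every library for 21 rows and in only 1 library for 44. mir-24-1 alone held 13.6% ± 2.7 of a mouse's precursor reads (SD, n = 15, range 7.9 to 18), the 3 leading rows held 36.5% ± 3.3 (31.7 to 43.6), and the 12 leading rows 61.1% ± 2.9 (54.2 to 65.7). The summed shares of 3 and of 12 rows thus varied less between mice, relative to their size, than that of mir-24-1 alone.

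**Figure D1:**
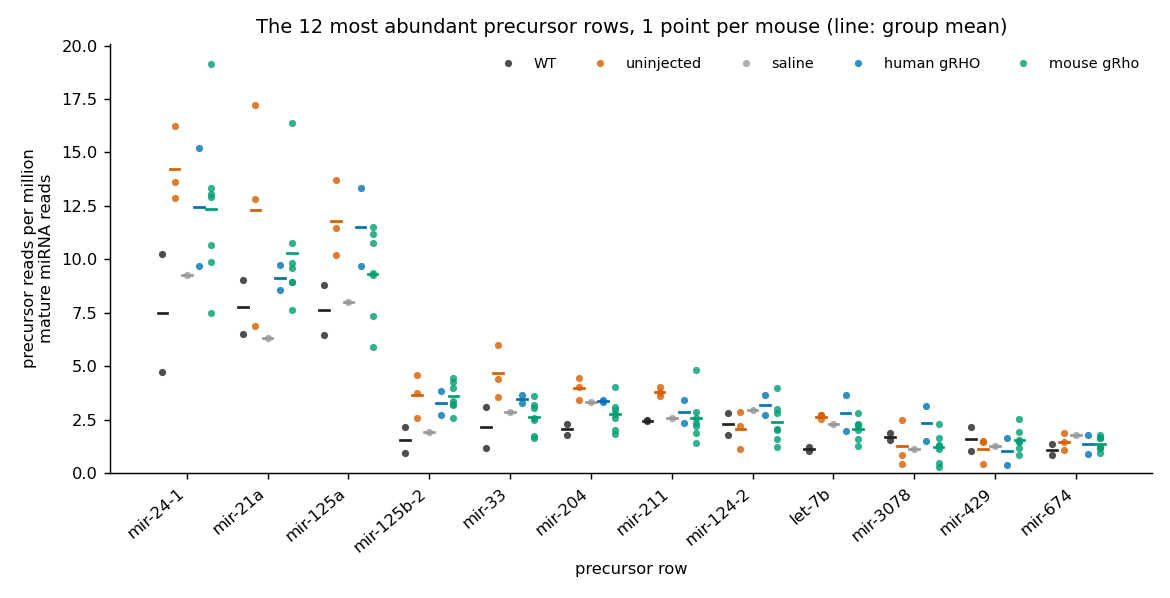
Precursor reads per 1000000 mature miRNA reads (vertical axis) of the 12 most abundant precursor rows (horizontal axis), 1 point per mouse, coloured by group, with a line at each group's mean. Within each mouse mir-24-1, mir-21a and mir-125a stand above every other row, and the points of the 5 groups overlap in most rows.

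The same 3 loci, mir-24-1, mir-21a and mir-125a, were the top 3 in 15 of 15 mice. mir-24-1 belongs to a cluster studied in vessels and in cell survival and was the highest row in 10 mice. Its level was 10.3 and 4.74 RPM in the 2 WT mice, 12.9, 13.6 and 16.2 in the uninjected mice, 9.29 in the saline mouse, 15.2 and 9.69 with human gRHO, and 7.502 to 19.1 (median 12.9) with mouse gRho. The 3 uninjected mice thus lay above both WT mice, and mice of the treated groups lay on both sides of them. mir-21a, a locus induced in reactive glia and inflamed tissue and read mostly from the 5p arm, was the highest row in 2 mice. It stood at 6.53 and 9.04 RPM in WT, 12.8, 6.88 and 17.2 in uninjected, 6.32 in saline, 9.72 and 8.58 with human gRHO and 7.64 to 16.4 (median 9.60) with mouse gRho. The saline mouse was the lowest, and the other 4 groups overlapped. mir-21a varied most of the leading rows relative to counting error. Its variance over the 23 libraries was 21.3 times that of counting, against 15.7 for mir-24-1 and 6.6 for mir-125a. At the same relative spread this ratio grows with the reads of a row. It also includes the right eye of mouse gRho mouse 1, where mir-21a stood at 25.3 RPM. mir-125a, of the lin-4 family that times neural development, was the highest row in the other 3 mice. It stood at 8.81 and 6.48 RPM in WT, 10.2, 11.5 and 13.7 in uninjected, 7.99 in saline, 9.67 and 13.3 with human gRHO and 5.88 to 11.5 (median 9.38) with mouse gRho.

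A gap followed these 3 rows: the next row, mir-125b-2, reached 3.18 ± 1.03 RPM (SD, n = 15), less than mir-125a in each of the 15 mice. mir-33, carried in the gene of the sterol regulator Srebf2 and itself a regulator of cholesterol export, had 3.09 ± 1.17 RPM. mir-204 and mir-211, which share a seed and are known for the pigment epithelium and its neighbours, had 3.03 ± 0.82 and 2.85 ± 0.91 RPM. They differ in host gene and in the 3p arm and yet stood at like levels. mir-124-2, a copy of the main neuronal miRNA, had 2.46 ± 0.83 RPM, let-7b 2.18 ± 0.69, mir-3078 1.43 ± 0.79, mir-429 of the epithelial miR-200 family 1.39 ± 0.58, and mir-674 1.38 ± 0.36. mir-674 varied between libraries by little more than counting error, with a ratio of variances of 1.39. It had only 337 reads, and at the same relative spread the ratio is lower for rows with fewer reads. The worst rank of mir-204 in any mouse was 10, against 44 for mir-3078 and 35 for mir-429.

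Loci that make the same mature arm differed widely in precursor reads. mir-24-1 held 98.7% of the precursor reads of both mir-24 copies (2915 against 40), and mir-7a-1 held 330 of 330. let-7f-2 held 97.2%, mir-128-1 96.6%, mir-129-2 98.3% and mir-9-2 46 of 48 reads. Shares were less one-sided for mir-16-1 (83.6%), mir-30c-2 (76.0%), mir-125b-2 (74.0%) and mir-124-2 (72.6%, with 18.5% for mir-124-3 and 9.0% for mir-124-1). mir-24-1 was the majority copy in 15 of 15 mice, as were mir-7a-1 and mir-125b-2, and mir-124-2 was in 14. The mature arm that copies share cannot separate them, whereas the other arm can differ, as for mir-24, and hairpins differ outside the arms. Deposited mature rows of the copies had the other order for mir-24 (9239 reads for mir-24-1, 108850 for mir-24-2), mir-128, mir-16 and let-7f. The order was the same for mir-7a, mir-129, mir-30c and mir-125b, and the mir-124 copies were nearly even. How reads common to copies were assigned is not given in the sources used here. Shares between near-identical copies are therefore uncertain.

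**Figure D2:**
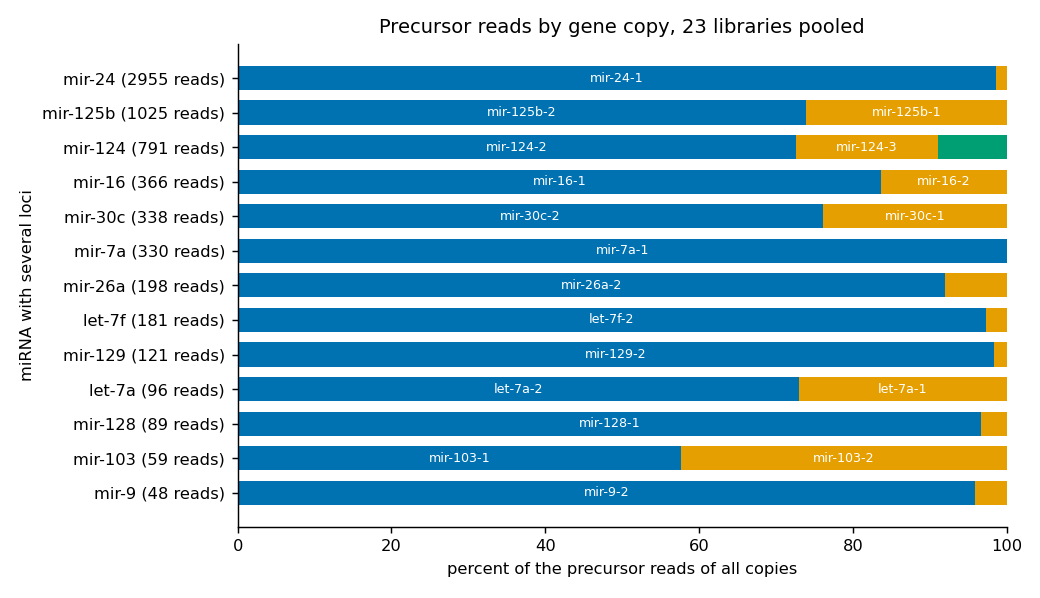
Share of precursor reads (horizontal axis, percent) held by each locus of 13 miRNAs that have several loci, over 23 libraries pooled, with the reads of all copies beside each name. In the mir-24, mir-7a, let-7f, mir-129, mir-128 and mir-9 bars a single copy fills over 95%, and only mir-103 is nearly even.

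Neighbouring hairpins, which are cut from a common primary transcript, were as uneven. Hairpins within 10000 bases on a strand were grouped. mir-24-1 held 91.7% of the reads of its cluster, against 7.11% for mir-23b and 1.19% for mir-27b. In the related cluster that holds mir-24-2 the order differed: mir-27a held 75.4%, mir-23a 12.7% and mir-24-2 11.8% of 338 reads. mir-125a held 99.7% beside let-7e with 6 reads, let-7b 96.3% beside let-7c-2, and mir-429 79.7% beside mir-200a with 20.3%. The photoreceptor-enriched miR-183 cluster had 223 reads of mir-96, 7 of mir-182 and 3 of mir-183. Its stemloop rows had another order, with 4326 reads of mir-182, 56 of mir-96 and 34 of mir-183. Across the 93 loci with both kinds of row, precursor and stemloop reads had a Spearman correlation of 0.20, over the same libraries. The precursor row had more reads at 57 of these loci and fewer at 33.

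Read numbers showed little relation to the size or base content of the hairpin. RefSeq held 202 of the 231 loci (9 by an older symbol), and 173 with both arms. The 29 unmatched loci include mir-125b-2, mir-124-2 and mir-3078. Across the 173 hairpins, Spearman's rho between reads and hairpin length was 0.02, and it was 0.02 for GC content, 0.04 for the 5′ flank, 0.03 for the loop between the arms and -0.07 for the 3′ flank, as a description over loci. The 26 loci with 100 reads or more had a median length of 84.5 bases, and the other 147 of 86 bases, with about 50% GC in both.

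The first comparison asked which rows differ between uninjected P23H+/- and WT retinas. A row entered the test if 3 or more mice had 10 or more counts of it. This left 37 of the 231 precursor rows, which held 85.3% of the precursor reads. None of the 37 passed an adjusted p of 0.05 (edgeR quasi-likelihood, 3 against 2 mice), where 7 of 442 rows of every class did (1.58%). An unadjusted p under 0.05 was reached by 4 of the 37 precursor rows, against 76 of all 442 rows (17.2%), and DESeq2 called 1 precursor row. The fitted log2 change was above 0 for 24 of the 37 rows and below 0 for 13, with a median of 0.25, against 0.02 over all 442 rows. The median standard error of the 37 changes was 0.66 (log2), so the test could see only large differences.

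The row with the smallest p was mir-96, of the photoreceptor-enriched miR-183 cluster. Its level was 1.56 and 2.31 RPM in the WT mice (15 and 37 reads), and 0.439, 0 and 0.582 RPM in the uninjected mice (11, 0 and 9 reads). For the uninjected mouse at 0, 3 reads would have been 0.430 RPM. Both WT mice lay above the 3 uninjected mice, with a log2 change of -2.77 (SE 0.91, adjusted p = 0.147, edgeR quasi-likelihood). With the libraries poor in retinal miRNAs left out it was -2.41 (adjusted p = 0.283), without the rRNA-rich libraries -2.53 (adjusted p = 0.715), without WT mouse 2 -2.25 (adjusted p = 0.718) and with DESeq2 -2.81 (adjusted p = 0.0467). A fit on precursor rows alone gave -2.93, and there the adjusted p was 3.02e-04. mir-96 stood at 0.975 RPM in the saline mouse, 1.79 and 0.908 with human gRHO, and 0 to 1.29 (median 0.619) with mouse gRho, so 1 human gRHO mouse lay within the WT range. The mature row of mir-96 differed by -1.23 (SE 0.56, adjusted p = 0.283) and that of mir-182 by -1.01 (SE 0.52, adjusted p = 0.370). mir-182 and mir-183 had too few precursor reads to test.

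mir-324 and mir-150, the latter a locus of lymphocytes, came next. mir-324 measured 1.04 and 1.37 RPM in WT and 0.838, 0.287 and 0.582 in uninjected mice, a log2 change of -1.41 (SE 0.59, adjusted p = 0.244). Without the rRNA-rich libraries, with uninjected mouse 1 alone in its group, the change was -0.92 (SE 0.82). mir-150 measured 1.56 and 1.06 RPM in WT and 0.559, 0.143 and 0.970 in uninjected mice, a log2 change of -1.52 (SE 0.66, adjusted p = 0.257). Neither row overlapped between the groups, and neither passed. Full separation of 3 from 2 mice, here and for other rows, says little, since the smallest exact permutation p for these numbers is 0.2. The share of all rows that separate was not counted. The mature row of mir-324 pointed the other way, at 1.20 (SE 0.36, adjusted p = 0.126). mir-125b-2 was higher in each of the 3 uninjected mice (2.58 to 4.59 RPM) than in WT (2.18 and 0.935), at 0.91 (SE 0.43, adjusted p = 0.289).

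**Figure D3:**
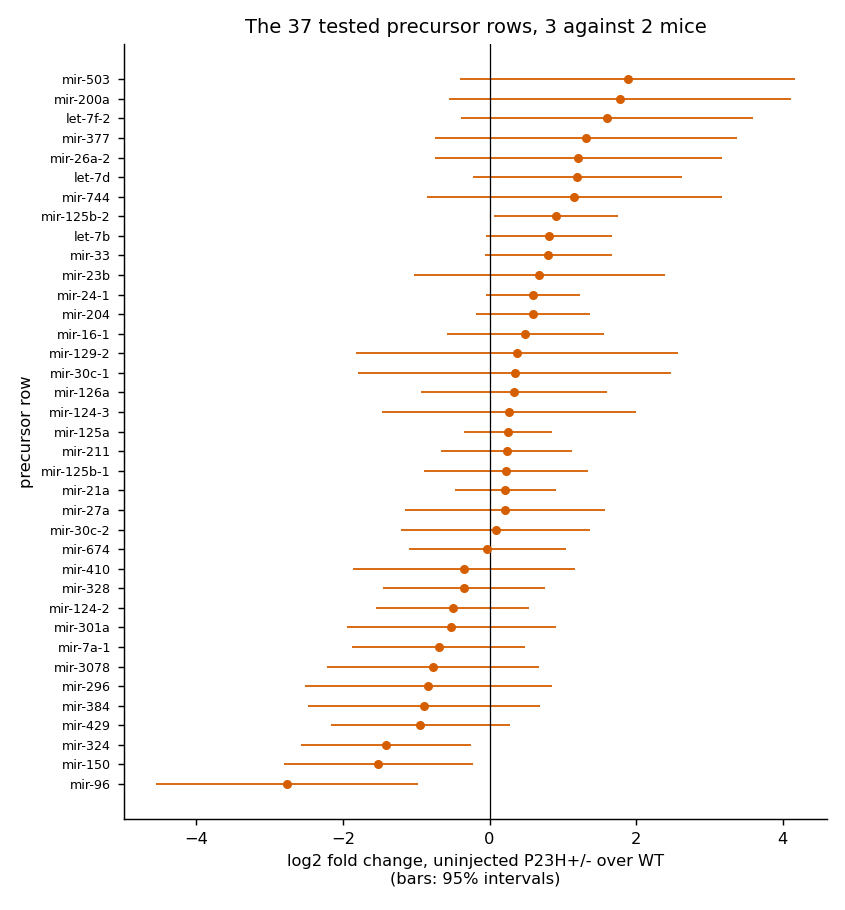
Log2 fold change of the 37 tested precursor rows (vertical axis) in 3 uninjected P23H+/- mice over 2 WT mice (horizontal axis), with bars of 95% intervals. mir-96, at -2.77, lies farthest from 0, and the bars of all but mir-96, mir-150, mir-324 and mir-125b-2 cross 0.

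Mature rows that passed in this comparison had little counterpart among precursor rows. Of the 7 called rows, all mature, only mir-23b had a tested precursor row, which differed by 0.68 (SE 0.87, adjusted p = 0.703) where the mature row differed by 1.47 (SE 0.33, adjusted p = 0.0244). Across 33 loci with both rows tested, 15 had the same sign, and Spearman's rho between the changes was 0.02 (over loci of the same 5 mice). The deposited mature rows cover only 10.4% to 19.5% of a library's mature reads, so no ratio of precursor to mature reads was formed for a locus.

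The second question was whether nanoparticle treatment moved the rows. In mouse gRho against uninjected mice, 0 of 37 precursor rows passed (0% of 442 rows of every class did), and DESeq2 called 0. An unadjusted p under 0.05 was reached by 2 of the 37, against 22 of all 442 rows (4.98%). mir-324 was higher, at 0.725 to 1.69 RPM (median 1.24) over 7 mice against 0.287 to 0.838, with a log2 change of 1.13 (SE 0.47, adjusted p = 0.882, edgeR quasi-likelihood). Without the rRNA-rich libraries, against uninjected mouse 1 alone, it was 0.64 (SE 0.73). mir-33 stood at 1.67 to 3.59 RPM (median 2.58) against 3.58 to 6.01, a log2 change of -0.67 (SE 0.31, same adjusted p), and mir-301a at -0.90 (SE 0.56). The mir-33 groups touched, with the highest mouse gRho mouse at 3.59 and the lowest uninjected mouse at 3.58 RPM.

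In human gRHO against uninjected mice, 0 of 37 rows passed (0% of all rows), and DESeq2 called 0. An unadjusted p under 0.05 was reached by 2 of the 37, against 18 of all 442 rows (4.07%). mir-96 had a log2 change of 1.98 (SE 0.91), mir-324 of 1.24 (SE 0.59) and mir-30c-2 of 1.01 (SE 0.61), each with an adjusted p of 0.895. Without the rRNA-rich libraries, against uninjected mouse 1 alone, mir-96 was at 1.69 (SE 1.15) and mir-324 at 0.70 (SE 0.81). The 2 human gRHO mice lay above the 3 uninjected mice in mir-96, in mir-324 (1.39 and 1.21 RPM) and in mir-30c-2 (1.52 and 1.51 against 0.799, 0.430 and 1.23 RPM). The single saline mouse shared part of this pattern: mir-324 stood at 1.25 RPM and mir-30c-2 at 1.58 RPM, with log2 changes of 1.297 (SE 0.69) and 1.18 (SE 0.73), and mir-21a at -0.69 (SE 0.46), all with an adjusted p of 0.895. Without the rRNA-rich libraries mir-324 was at 0.74 (SE 0.91) in the saline mouse, again against uninjected mouse 1 alone. In saline against uninjected 0 of 37 rows passed (0% of all rows), 0 had an unadjusted p under 0.05 and DESeq2 called 0, and the fit assumes that the single mouse varies like the others. These comparisons share the 3 uninjected mice, so mir-324 and mir-96 are not separate evidence in each. The uninjected mice, like the human gRHO mice, share a leading title number, and if that is a cage, treatment and cage cannot be told apart.

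Human gRHO against mouse gRho gave 0 of 37 rows (0% of all rows), with 0 unadjusted p under 0.05 (13 of all 442 rows, 2.94%) and 0 DESeq2 calls. The smallest p-values belonged to let-7d at 0.87 (SE 0.54), mir-3078 at 0.88 (SE 0.62) and mir-96 at 1.05 (SE 0.74), all with an adjusted p of 0.995. In mouse gRho against WT, 0 of 37 precursor rows passed where 12 of 442 rows of every class did (2.71%), 3 had an unadjusted p under 0.05, against 76 of all 442 rows (17.2%), and DESeq2 called 0. mir-125b-2, at 2.58 to 4.47 RPM in the 7 mouse gRho mice against 2.18 and 0.935 in WT, differed by 1.05 (SE 0.40, adjusted p = 0.167). mir-96 differed by -1.83 (SE 0.72, adjusted p = 0.185) and mir-301a by -1.42 (SE 0.63, adjusted p = 0.255). All 7 mouse gRho mice lay below both WT mice in mir-96, and all 7 above both in mir-125b-2. Both rows were named for their small p, and the share of all rows that separate in this way was not counted.

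The class as a whole was then compared as all precursor reads in RPM. It measured 79.5 and 59.9 in the WT mice, 97.2, 81.8 and 119.8 in the uninjected mice, 72.3 in the saline mouse, 92.9 ± 7.1 (SD, n = 2) with human gRHO and 84.5 ± 11.01 (SD, n = 7, range 72.9 to 106) with mouse gRho. The 3 uninjected mice lay above both WT mice, by 0.51 (log2), with an exact permutation p of 0.2 (two-sided), which is the smallest that 3 against 2 mice allow. Mouse gRho differed from uninjected by -0.23 (exact permutation p = 0.167). With the libraries poor in retinal miRNAs left out it differed by -0.40 (exact permutation p = 0.0556, the smallest that 7 against 2 mice allow). Differences were -0.08 for human gRHO over uninjected (p = 1, exact permutation), 0.14 for human gRHO over mouse gRho (exact permutation p = 0.333) and 0.28 for mouse gRho over WT (exact permutation p = 0.222). All 13 P23H+/- mice differed from WT by 0.34, with 9 of 13 above both WT mice (exact permutation p = 0.0952, adjusted over 7 tests 0.311). The size of the difference from WT depended on the scale: with TMM factors on the mature reads it was 0.13 for uninjected mice and 0.08 for all P23H+/- mice, and uninjected mouse 2 (76.9) then lay below both WT mice (81.7 and 79.3).

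**Figure D4:**
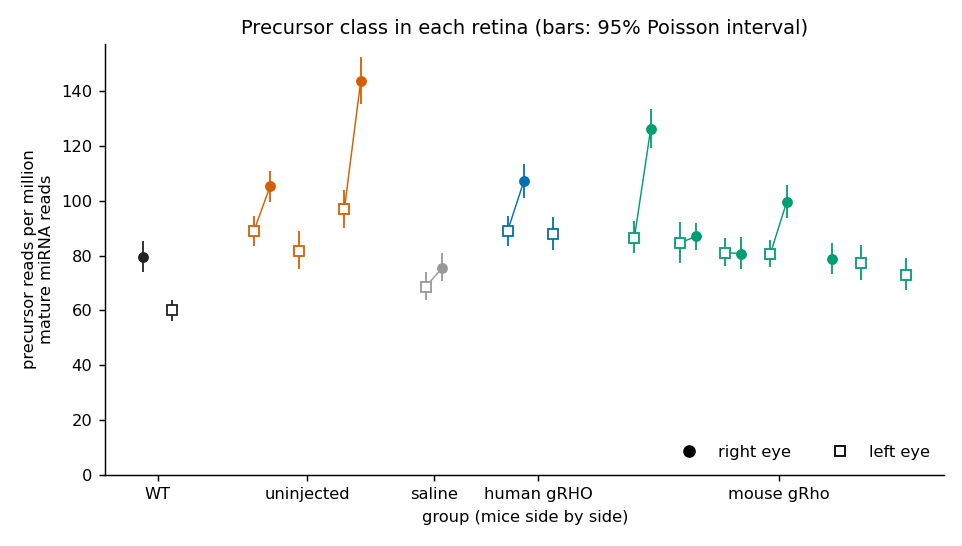
Precursor reads per 1000000 mature miRNA reads (vertical axis) of each retina, grouped by treatment (horizontal axis), with filled circles for right and open squares for left eyes, lines between the eyes of a mouse, and 95% Poisson intervals that cover counting error only. Right eyes lie higher in 7 of 8 joined pairs, and the spread between eyes is as wide as that between groups.

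Right and left retinas of 8 mice differed in the class. The right eye was higher in 7 of 8, by 0.26 on average (log2, SD 0.21, ratio 1.20), from -0.01 in mouse gRho mouse 3 to 0.57 in uninjected mouse 3. The exact paired permutation p was 0.0156 (two-sided, smallest possible 0.0078), and adjusted over 7 tests it was 0.109, which fails the correction. Without the pairs that hold an rRNA-rich library the mean was 0.30 (5 of 5 mice, exact permutation p = 0.0625, the smallest possible), and without mouse gRho mouse 1 it was 0.22 (exact permutation p = 0.0312). With TMM factors the mean was 0.17.

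By row, 0 of 30 tested precursor rows passed between the eyes (0% of 373 rows of every class), and DESeq2 called 0. An unadjusted p under 0.05 was reached by 2 of the 30, against 12 of all 373 rows (3.22%). The smallest p of the 373 rows was that of mir-429, an epithelial miRNA that represses the ZEB transcription factors. Its right eyes measured 1.51 to 4.28 RPM (mean 2.32 ± 0.89, SD, n = 8) and its left eyes 0 to 1.24 RPM (0.722 ± 0.422). The right eye was higher in 8 of 8 mice and the eyes did not overlap, with a log2 difference of 1.61 (SE 0.45, p = 0.00474, adjusted p = 0.968, edgeR quasi-likelihood with a mouse term). Among the 7 mice with a single library, the WT eyes stood the other way. The right eye of WT mouse 1 had 1.04 RPM and the left eye of WT mouse 2 had 2.18 RPM. Of the 5 P23H+/- mice, 1 right eye had 1.55 RPM (15 reads) and 4 left eyes 0.404 to 1.47 RPM (11 reads at the highest). These are eyes of different mice, so they give no order within a mouse. mir-21a was higher in the right eye of 7 of 8 mice, at 14.4 ± 6.3 against 8.54 ± 2.50 RPM, a log2 difference of 0.61 (SE 0.20, adjusted p = 0.968). let-7b was higher in 7 of 8, at 0.43 (SE 0.23), and mir-24-1 in 7 of 8, at 0.24 (SE 0.16). The log2 differences are from the fit with TMM factors, whereas the counts of mice use RPM. In RPM the whole class was itself higher in the right eye of 7 of 8 mice, by 0.26 (log2). mir-33 and mir-214, among others, also reached 7 of 8, and the share of all rows that do so was not counted.

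**Figure D5:**
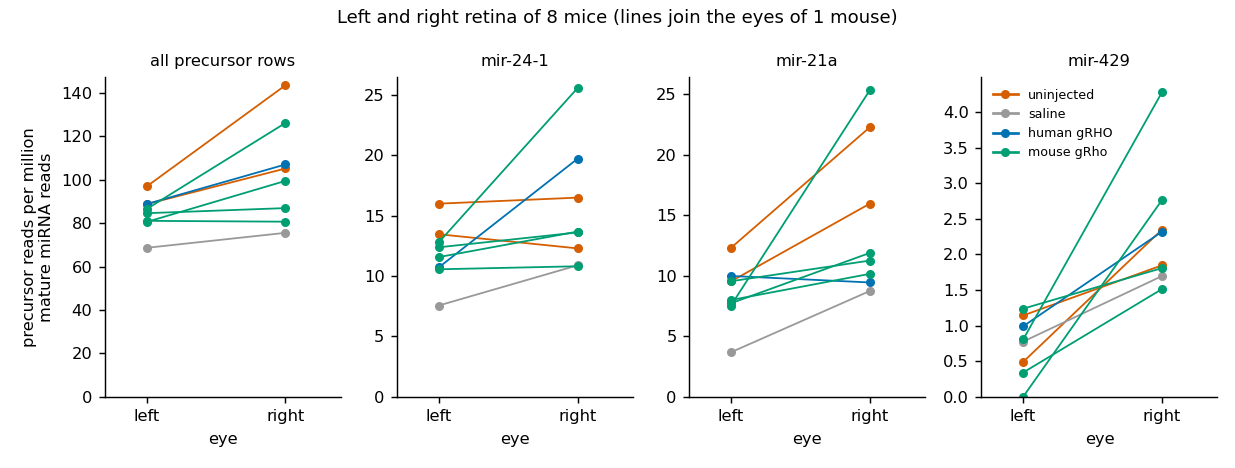
Precursor reads per 1000000 mature miRNA reads (vertical axes) in the left and right retina of 8 mice, for the whole class and for mir-24-1, mir-21a and mir-429, with lines that join the eyes of a mouse. In the mir-429 panel the 8 right eyes, from 1.51, lie above the 8 left eyes, up to 1.24.

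Markers of ocular surface and lens were set beside the eye difference, and none of their rows passed. Over the 7 precursor rows of that list (mir-429, mir-200a, mir-141, mir-184, mir-205, mir-31 and mir-203), the summed level was higher in the right eye of 8 of 8 mice, at 3.75 ± 1.75 against 1.53 ± 0.76 RPM (SD, n = 8). mir-429, named for its small p in the same libraries, gives most of the difference, at 2.32 against 0.722 RPM. The sum therefore largely repeats that row, and the list without mir-429 was not counted. The whole class was also higher in the right eye of 7 of 8 mice. In the other classes, 6 of 8 tested rows of the list were above 0 and 2 below, with a median log2 difference of 0.26, of which the stemloop row of mir-141 had 2.08 (SE 0.76, unadjusted p = 0.0199) and the mature row of mir-184, a cornea and lens miRNA, -0.47 (SE 0.32). The mature row of mir-21a was higher by 0.71 (SE 0.25, adjusted p = 0.968). Over all 26 loci with both rows tested, 20 had the same sign between the eyes. The part of tissue other than retina in the eye difference was not tested.

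The right eye of mouse gRho mouse 1, a library poor in retinal miRNAs, stood apart from the other libraries in several rows. It had 249 reads of mir-21a (25.3 RPM), 251 of mir-24-1 (25.6 RPM), 42 of mir-429 (4.28 RPM) and 17 of mir-200a (1.73 RPM), the highest levels of these 4 rows among the 23 libraries. It had 0 reads of mir-124-1, mir-124-2, mir-124-3, mir-3078, mir-384, mir-150 and mir-129-2. Over the 8 pairs the right eye was higher in only 3 to 5 mice for each of these rows. A link between these zeros and the eye difference was not tested. Without this mouse the eye difference was 1.51 (SE 0.49, adjusted p = 0.988) for mir-429 and 0.48 (SE 0.17, adjusted p = 0.988) for mir-21a.

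The remaining lists of loci are given by counts, and 0 members passed in any of the 7 comparisons. The miR-99/100 and miR-125 families held 3397 precursor reads (16.3% of the class), with 3 of 6 rows tested. They summed to 8.22 and 12.4 RPM in WT and 15.1 to 20.2 in uninjected mice. Immune and gliosis loci held 2667 reads, of which mir-21a gave 2462 and mir-150 204, and mir-142a a single read. The miR-204 family held 1397 reads, at 4.24 and 4.77 RPM in WT and 7.45 to 8.06 in uninjected mice, and mouse gRho mice spread from 3.41 to 7.77. The let-7 family held 1141 reads in 12 rows, at 1.81 and 3.42 RPM in WT and 6.30 to 6.60 in uninjected mice. For the miR-99/100 and miR-125, miR-204 and let-7 families WT and uninjected mice did not overlap on this scale. Nor did they for the whole class, at 59.9 and 79.5 RPM in WT and 81.8 to 119.8 in uninjected mice. The median of all 442 rows also stood at 0.38 (log2) in uninjected over WT on this scale. The share of lists that separate was not counted. As for single rows, separation of so few mice says little. In the fit with TMM factors the log2 change was 0.25 for mir-125a (SE 0.31), which leads the first of these families. It was 0.59 for mir-204 (SE 0.40), 0.23 for mir-211 (SE 0.45) and 0.81 for let-7b (SE 0.44).

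The miR-124 and miR-9 rows held 839 reads, the imprinted Dlk1-Dio3 cluster 675 in 30 rows led by mir-410, the epithelial list 581, the miR-29 and miR-30 families 490, vessel loci 427 (311 of them mir-126a, an endothelial miRNA) and the miR-183 cluster 233. The miR-17/92 clusters held 122 reads, muscle loci 74, red cell loci 18, loci processed by other routes 14, the miR-181 family 6, and loci that overlap rRNA had no precursor row. Muscle loci reached at most 0.726 RPM and red cell loci 0.561 RPM in any library, both in WT retinas.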

How the data were processed

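RNA was taken with Trizol from flash frozen retinas and made into libraries with a NEXTflex small RNA v3 kit, per the labels' protocols. The authors deposited whole-number read counts per miRNA row and class, and a table of aligned reads by RNA type; the submitters' processing notes name DESeq2, while the labels and headers state no aligner, build, annotation or definition of each class. Precursor rows summed to the alignment table's precursor reads in 23 of 23 libraries, and 0 columns of the matrix were unused. No 2 libraries were duplicates (smallest chi-square per degree of freedom 1.46 over precursor rows).

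Levels are reads per 1000000 mature miRNA reads of the alignment table (RPM), without TMM, and their precision is set by the 505 to 1345 precursor reads per library. Intervals and 3-read floors cover counting error only. Eyes of a mouse were summed, and edgeR 4.0.16 (R 4.3.3, robust quasi-likelihood, TMM factors of 0.756 to 1.23 on mature reads) was fitted to 15 mice in 5 groups over all classes, after 65 mature rows with an on-off pattern over libraries were set aside. Benjamini-Hochberg adjustment ran over 442 rows; eyes were compared over 16 libraries of 8 mice with a mouse term, over 373 rows. Class ratios were tested by exact permutation, with all relabellings enumerated (Python 3.11.15, numpy 2.4.6). The 95% intervals of fold changes used scipy 1.17.1. Figures used matplotlib 3.10.9. The scripts were tested on simulated data.

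Named rows are the 12 most abundant, the 3 with the smallest p in each comparison, the miR-183 cluster and members of fixed lists. Members and lists were chosen with earlier results of these data known. Alternatives were DESeq2 1.42.0, other scales and filters, precursor rows alone, libraries as the unit, and leaving out mice, rRNA-rich or retina-poor libraries.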

Additional observations from a re-analysis of the deposited data

Results flagged for a closer look

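In 2 of the 19 series of 7 mouse gRho mice examined, 1 mouse stood far from the others by Dixon's criterion (critical value 0.568), and chance sets apart about 1 in 20 such groups. For the precursor row of mir-21a, mouse gRho mouse 1 stood at 16.4 RPM, with the nearest mouse at 10.8 (gap over range 0.644). Its right eye is the library with 0 reads of the 3 mir-124 precursor rows, and there mir-21a stood at 25.3 RPM, against 7.55 RPM in the left eye. For mir-211, mouse gRho mouse 6 stood at 4.82 RPM, with the nearest mouse at 2.88 (gap over range 0.568, which passes the critical value only before rounding). This mouse has a single library, which is among those rich in rRNA.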

How the results depend on the processing

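No paired analysis between groups was possible because the labels give no replicate numbers shared across groups; eyes were paired by a mouse term. Of 92 alternative counts of called precursor rows, 85 stayed at 0. For uninjected against WT the count was 1 with DESeq2 (mir-96) and 2 with precursor rows only (mir-96 and mir-324), and leaving out 1 mouse gave 0 to 2. For mouse gRho against WT it was 1 with precursor rows only (mir-96), and leaving out 1 mouse gave 0 to 3, the highest without WT mouse 1, where mir-125b-2 had an adjusted p of 0.0406 (edgeR). Between the eyes it was 1 without a filter (mir-429) and 2 with precursor rows only (mir-429 and mir-21a). A fit on precursor rows alone adjusts over fewer rows, and it also estimates the TMM factors and the spread anew. The SE of mir-96 in uninjected over WT was 0.65 there, against 0.91 in the main fit. The cause of these changes was not tested. For the 3 rows with the smallest p in each comparison (21 results), all 275 alternative values kept their direction. Changes of other named rows that were near 0 did not all do so: mir-21a in mouse gRho over WT went from 0.12 to -0.04 with precursor rows only. The class ratio of human gRHO over uninjected changed sign, to 0.0317 per aligned read, to 0.0610 with TMM factors, and to between -0.22 and 0.0578 when 1 mouse was left out (the highest without uninjected mouse 3). That of right over left was 0.30 without the rRNA-rich libraries, with 5 mice left and an exact permutation p of 0.0625, the smallest possible. The other 76 class ratios kept their direction and side. Leaving out WT mouse 2 took all P23H+/- over WT from 0.34 to 0.14. Without TMM the median of all rows moved by 0.36 (log2) in uninjected over WT. TMM factors on the class ratio, and leaving out libraries in the eye comparison of that ratio, were chosen after seeing the data. At 505 to 1345 precursor reads per library, 194 of 231 rows were too low to test, and with 2 WT mice no class ratio against uninjected could reach a p under 0.2.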

Other observations

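The alignment table lists 9148 loop reads and 15413 unannotated miRNA reads over the 23 libraries, beside 20784 precursor reads. Of the 231 precursor rows, 229 have a mature row of the same locus, 93 a stemloop row and 10 an unannotated row. The precursor rows of the miR-17/92 clusters, which drive proliferation, summed to 0.828 ± 0.438 RPM in the right and 0.452 ± 0.405 RPM in the left retinas (SD, n = 8), with the right higher in 7 of 8 mice and each row too low to test. On the same scale the whole precursor class was itself higher in the right retina of 7 of 8 mice. The imprinted Dlk1-Dio3 cluster stood at 3.06 ± 0.65 RPM in the right and 3.27 ± 0.60 RPM in the left. Its left retina was higher in 6 of 8 mice, with means that differ by less than either SD. Neither sum was tested between the eyes.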
